A study of Mus musculus with 12 samples.

Results

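The 10 genes described here belong to prostaglandin and leukotriene synthesis and signalling, and were read in mouse macrophages of 2 genotypes, with and without a fungus. They are Pla2g4a, Ptgs1, Ptgs2, Ptges, Ptges3, Alox5, Alox5ap, Lta4h, Ltc4s and Ptger4, taken by gene symbol from the deposited expression table, where all 10 were found among 25230 genes. The cells were bone marrow derived macrophages, grown from femur and tibia marrow in medium with 50 ng per ml of M-CSF and cultured for 8 days. The groups were Piezo1 knockout (KO) macrophages given Candida albicans, KO macrophages given PBS, wild-type (WT) macrophages given C. albicans and WT macrophages given PBS, with 3 libraries each and 12 in all. The series asks how macrophages lacking Piezo1, a cation channel opened by membrane tension, differ with and without the fungus.

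What limits the groups is stated here once. The titles of the KO PBS libraries name DMSO while their treatment label says PBS, so a vehicle effect and a genotype effect cannot be told apart in any comparison that uses them. The sources used here do not give the dose of fungus, the time of exposure, the allele, or the age and strain of the mice. Nothing says that the 3 libraries of a group came from separate animals or cultures, and the p-values then describe the spread of these libraries, which may be technical. Piezo1 itself, the targeted gene, stood at 64.9 ± 0.756 TPM in KO cells with C. albicans, 65.4 ± 2.72 in KO cells with PBS, 137 ± 8.68 in WT cells with C. albicans and 135 ± 4.69 in WT cells with PBS (SD, n = 3 each). Its transcript was therefore present in the KO libraries, at 0.474 times the WT level with C. albicans and 0.486 times with PBS.

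Eicosanoids are signalling lipids made from arachidonic acid, which cytosolic phospholipase A2 cuts from membrane phospholipids. Cyclooxygenases turn arachidonic acid into prostaglandin H2, and terminal synthases turn that into prostaglandin E2, thromboxane and other prostanoids. Along the other route 5-lipoxygenase, helped by its activating protein, makes leukotriene A4, from which separate enzymes make leukotriene B4, which attracts neutrophils, or leukotriene C4, the parent of the cysteinyl leukotrienes. In macrophages Ptgs2 and Ptges are the classic inducible enzymes, while Ptgs1 and Ptges3 are regarded as their constitutive counterparts. Prostaglandin E2 acts back on macrophages, in part through the receptor encoded by Ptger4.

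All values are TPM (transcript abundance), which scale reads to gene length and library, so levels of different genes can be set side by side. Reads in genes ranged from 16400119 to 25741091 per library. Macrophage markers were plentiful, since 8 of 8 reached 1 TPM and their summed level was 6979 to 7077 TPM in KO cells with C. albicans, 6885 to 6997 in KO cells with PBS, 6830 to 7033 in WT cells with C. albicans and 6898 to 6934 in WT cells with PBS. Of 8 neutrophil markers 2 reached 1 TPM, with S100a9 and Ly6g at 0 in every library. Their summed level was 3.06 to 5.29 TPM in KO cells with C. albicans, 4.19 to 5.68 in KO cells with PBS, 6.56 to 8.07 in WT cells with C. albicans and 2.11 to 2.75 in WT cells with PBS. Most of this sum was S100a8, which averaged 3.54, 4.51, 6.68 and 2.06 TPM in the same groups. No other neutrophil marker averaged above 0.595 TPM in any group. The rise of the sum with the fungus in WT was thus mainly that of S100a8, and its part in the results was not tested. Of 5 lymphocyte markers 1 reached 1 TPM and Cd3e was at 0 in every library, and their summed level was 0.558 to 1.40 TPM in KO cells with C. albicans, 0.926 to 1.26 in KO cells with PBS, 0.159 to 0.471 in WT cells with C. albicans and 2.34 to 2.71 in WT cells with PBS. This sum was lowest in WT cells with C. albicans and highest in WT cells with PBS, and its part in the results was not tested either. Mast cell and basophil markers, relevant to leukotriene genes, summed to at most 2.97 TPM in any library, with Fcer1a, Mcpt8, Tpsb2 and Prss34 at 0. Among WT C. albicans libraries replicate 1 was unlike the rest: compared with replicates 2 and 3 its counts gave chi-square values of 16.2 and 15.3 per degree of freedom, and other pairs within groups gave 1.49 to 4.60. Some counts of genes, and some results for Pla2g4a, Ptgs1, Ptgs2, Ptges, Ptger4 and Alox5ap, are given with and without this library. Most other results are given with it only. This holds also for genes described further on in which it lay apart from its replicates, such as Abcc1, Lpcat2, Daglb, Pla2g15 and Tbxas1.

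The order of levels was steep. Alox5ap lay at 507 to 590 TPM, Ptges3 at 77.1 to 105 TPM, Lta4h at 42.8 to 57.2 TPM, Ptger4 at 5.87 to 24.8 TPM, Pla2g4a at 4.57 to 9.30 TPM and Ltc4s at 2.39 to 7.27 TPM. Ptges covered 2.57 to 24.8 TPM, Ptgs2 0.887 to 19.9 TPM and Ptgs1 0.751 to 2.64 TPM. Alox5 never passed 0.255 TPM. Ptger4, Pla2g4a, Ltc4s, Ptges and Ptgs2 overlapped one another over the 12 libraries, and their order differed between groups. Alox5ap and Alox5, the helper protein and the enzyme it serves, stood at the 2 ends of the order.

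**Figure D1:**
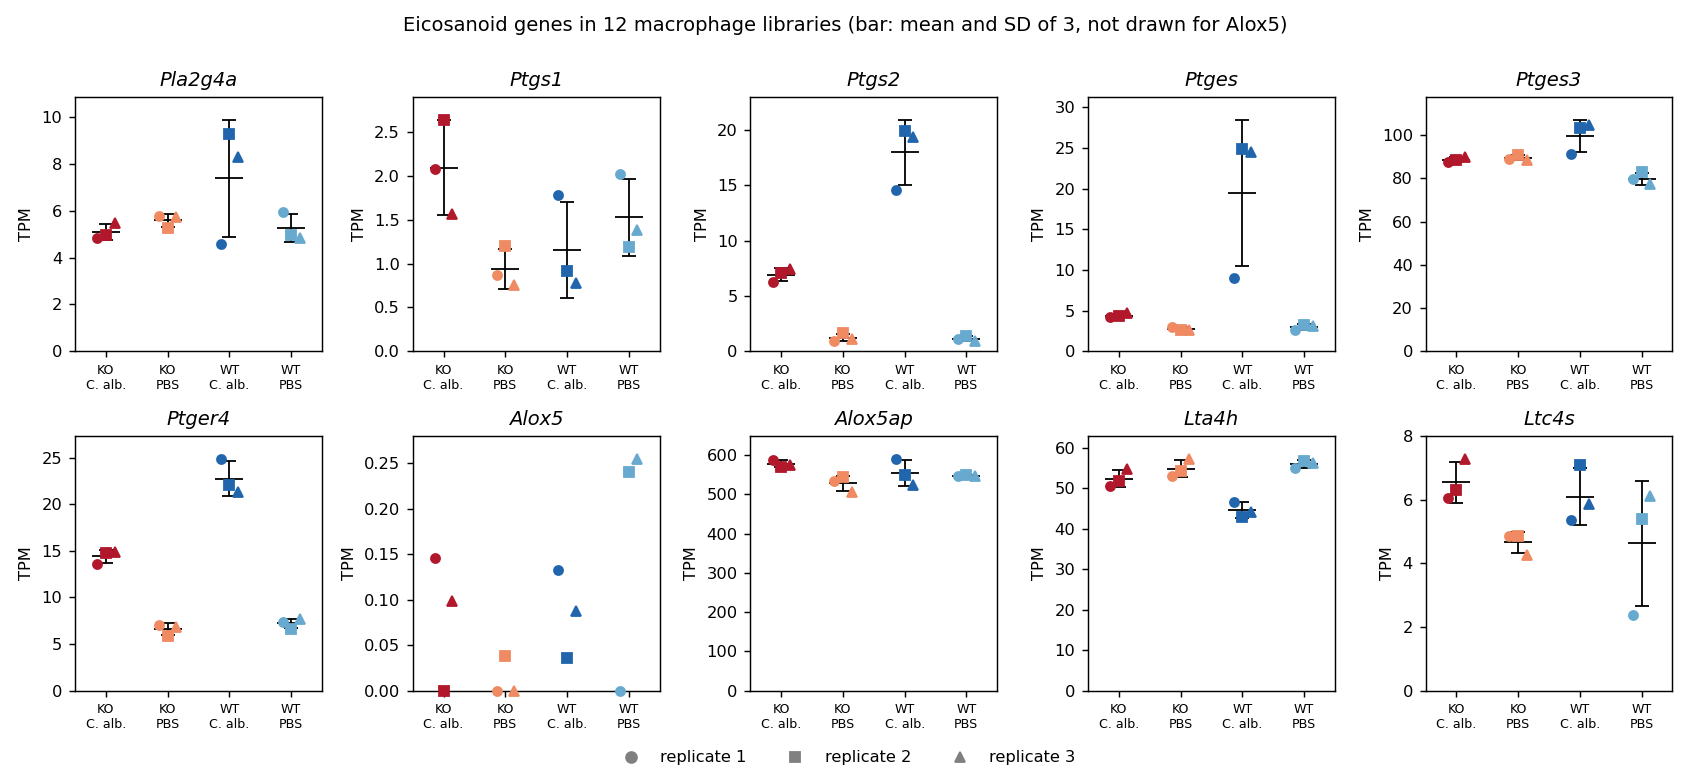
TPM of the 10 genes in each library, with 1 panel per gene, its own vertical axis starting at 0, and the 4 groups along the horizontal axis (KO and WT, with C. albicans or PBS). Points are libraries, and bars are means with SDs of 3; Ptgs2, Ptges and Ptger4 are highest in WT cells with C. albicans, while Alox5ap stays at 507 to 590 TPM in all 12 libraries.

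The stretches before a transcription start are shown for the 3 genes with the largest responses to C. albicans in WT cells, Ptgs2, Ptges and Ptger4, and for Alox5, the gene that was barely read. They are 250 bases long, from RefSeq on GRCm38.p6, and are written 5′ to 3′ on the gene's strand. The Ptges stretch lies before a start inside the gene's span of chr2:30889471-30931020, and not at the 5′ end of that span. Capitals mark the motifs found, GGGCGG (a GC box, or CCGCCC where it lies on the other strand) and TTGCGCAA (a C/EBP-type palindrome).
Ptgs2 promoter, chr1:150099781-150100030, plus strand: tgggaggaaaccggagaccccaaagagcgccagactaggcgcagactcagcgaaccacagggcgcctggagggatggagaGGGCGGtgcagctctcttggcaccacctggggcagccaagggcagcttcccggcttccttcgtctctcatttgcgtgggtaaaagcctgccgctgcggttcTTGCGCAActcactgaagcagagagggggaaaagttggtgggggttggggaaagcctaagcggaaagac
Ptges promoter, chr2:30903298-30903547, minus strand: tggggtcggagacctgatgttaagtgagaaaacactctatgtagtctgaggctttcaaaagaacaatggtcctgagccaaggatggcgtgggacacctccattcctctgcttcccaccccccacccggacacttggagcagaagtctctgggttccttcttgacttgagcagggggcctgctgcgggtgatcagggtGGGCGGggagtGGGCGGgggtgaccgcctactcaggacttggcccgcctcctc
Ptger4 promoter, chr15:5244188-5244437, minus strand: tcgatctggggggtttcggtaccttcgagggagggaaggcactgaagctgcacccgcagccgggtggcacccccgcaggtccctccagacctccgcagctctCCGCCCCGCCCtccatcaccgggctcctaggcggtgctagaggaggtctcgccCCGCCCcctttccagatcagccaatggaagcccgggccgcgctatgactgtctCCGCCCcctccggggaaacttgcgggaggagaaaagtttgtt
Alox5 promoter, chr6:116461179-116461428, minus strand: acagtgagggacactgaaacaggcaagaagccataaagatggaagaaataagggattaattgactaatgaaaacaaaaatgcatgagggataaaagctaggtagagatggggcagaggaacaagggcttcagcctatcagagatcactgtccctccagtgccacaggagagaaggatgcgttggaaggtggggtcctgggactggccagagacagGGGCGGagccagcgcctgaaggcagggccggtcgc

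The search covered 6 motifs on both strands of windows from 250 bases before to 50 after the start, and 9 of the 10 genes had such a window. The Ptgs2 window held TTGCGCAA at position -69, a motif found in 0.183% of all 32851 promoter windows, and GGGCGG at -170, found in 35.7%. Ptges carried GGGCGG at -53 and -42, Alox5 carried it at -35, and Ptger4 held 4 copies on the other strand, of which those at -148 and -143 share 1 base. TATAAA, present in 13.6% of windows, occurred among these genes in 1 alternative Pla2g4a window only, at -200 on the other strand. TGANTCA (7.81% of windows), TGACGTCA (1.79%) and the NF-kB site (4.51%) were found in none of these windows. A match is a stretch of letters and was not tested for binding.

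Each gene was tested in a limma fit of log2(TPM + 1) over all 12 libraries and 11283 genes, and a gene is said to pass at a Benjamini-Hochberg adjusted p under 0.05. Of the 10 genes, 9 reached the filter of 1 TPM in at least 3 libraries, and Alox5 did not. The responses and the KO against WT comparisons use the same libraries in different pairs, so their values for a gene are not independent. The added 1 TPM makes the fold changes of low genes such as Ptgs1 and Ptgs2 smaller than their ratios of TPM. In bulk RNA a change in the share of cells and a change in RNA per cell cannot be told apart.

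With C. albicans, 2 of the 9 tested genes rose and 0 fell in KO cells, while 4 rose and 1 fell in WT cells. Over all tested genes, 3.94% rose and 3.14% fell in KO cells, and 16.1% rose and 28.3% fell in WT cells. The genes that rose in KO cells were Ptgs2 and Ptger4, and those that rose in WT cells were Ptgs2, Ptges, Ptger4 and Ptges3, with Lta4h the one that fell. The 2 responses differed for 5 genes by the interaction, the response in KO cells minus that in WT cells: 4 had a lower response in KO cells (Ptgs2, Ptges, Ptger4, Ptges3) and 1 a higher one (Lta4h). Of all tested genes 6.33% passed the interaction as lower and 7.52% as higher. With C. albicans 4 of the 9 were lower and 1 was higher in KO than in WT cells, against 27.5% and 12.4% of all tested genes. With PBS 0 were lower and 1 was higher, against 26.1% and 6.14%. The count with PBS, Ptges3 alone, was 0 without WT PBS replicate 1 or 3 or KO PBS replicate 1 or 2. Without WT C. albicans replicate 1, 5 genes rose in KO cells, and 8 passed both for the interaction and for KO against WT with C. albicans, with 5 lower and 3 higher in each. In the same fit calls over all 11283 genes went up as well, to 663 that rose in KO cells against 445 with the library, and to 1059 lower and 1472 higher in the interaction, against 714 and 849. For KO against WT with C. albicans they were 2950 lower and 1749 higher, against 3101 and 1402.

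These shares of all genes depend on the scaling. Of the genes that passed, 55.7% were higher for the response in KO cells with TPM as deposited, 78.0% with median-ratio scaling and 65.2% with upper-quartile scaling. For the response in WT cells the shares were 36.2%, 55.5% and 38.7% in the same order of scalings. For KO against WT they were 31.1%, 46.9% and 52.4% with C. albicans and 19.0%, 50.2% and 41.1% with PBS, and for the interaction 54.3%, 41.2% and 59.2%. The directions named for Ptgs2, Ptges, Ptger4, Ptges3 and Lta4h in the tests they passed were the same under all 3 scalings. The count for KO against WT with C. albicans, 4 lower and 1 higher as deposited, was 3 lower and 3 higher with median-ratio scaling, with upper-quartile scaling and with voom, since Ptges3 no longer passed and Ptgs1 and Alox5ap passed as higher.

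Pla2g4a (chr1:149829618-149961290) encodes cytosolic phospholipase A2 alpha, which frees arachidonic acid for both routes. It had 4.82, 4.96 and 5.50 TPM in KO cells with C. albicans and 5.79, 5.27 and 5.73 TPM in KO cells with PBS. In WT cells it had 4.57, 9.30 and 8.32 TPM with C. albicans and 5.97, 4.99 and 4.83 TPM with PBS. WT C. albicans replicates 2 and 3 were above all other libraries, and replicate 1 was below all of them. The log2 fold change with C. albicans was -0.11 in KO cells (limma adjusted p = 0.744) and 0.38 in WT cells (limma adjusted p = 0.0971), and neither passed. Without WT C. albicans replicate 1 the WT response was 0.65 (limma adjusted p = 0.000174), the interaction was -0.77 (limma adjusted p = 0.00122, against 0.219 with it) and KO against WT with C. albicans was -0.69 (limma adjusted p = 0.000142, against 0.0786 with it). Over all alternatives these 3 adjusted p-values (limma or voom) ranged from 0.000174 to 0.37, from 0.00122 to 0.436 and from 0.000142 to 0.306. In the authors' deposited table, which its values show to compare WT cells with C. albicans and with PBS, the log2 fold change of Pla2g4a was 0.583 with an adjusted p of 0.012.

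Ptgs2 (chr1:150100031-150108234), which encodes the inducible cyclooxygenase COX-2, rose with C. albicans in both genotypes and rose less in KO cells. It had 6.28, 7.03 and 7.48 TPM in KO cells with C. albicans and 0.961, 1.61 and 1.15 TPM in KO cells with PBS. WT cells had 14.6, 19.9 and 19.4 TPM with C. albicans and 1.12, 1.34 and 0.887 TPM with PBS. All C. albicans libraries lay above all PBS libraries, the KO ones lay below all 3 WT ones, and the PBS libraries of the genotypes overlapped. Its mean with C. albicans was 5.59 times that with PBS in KO cells and 16.1 times in WT cells.

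On the log2 scale of TPM + 1 the response of Ptgs2 was 1.83 in KO cells (SE 0.14, limma adjusted p = 1.97e-06) and 3.16 in WT cells (SE 0.14, limma adjusted p = 2.34e-09). The responses differed by -1.32 (SE 0.20, limma adjusted p = 0.000887). KO against WT gave -1.25 with C. albicans (limma adjusted p = 2.11e-05) and 0.08 with PBS (limma adjusted p = 0.723, 95% interval -0.23 to 0.38). Without WT C. albicans replicate 1, the lowest of its group, the interaction was -1.46 (limma adjusted p = 0.000117), and over all alternatives its adjusted p ranged from 0.000117 to 0.0083. For Ptgs2 in WT cells the value in the authors' deposited table is 4.10 on the log2 scale.

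Ptgs1 (chr2:36216742-36258593), which encodes the constitutive cyclooxygenase COX-1, was low everywhere. It had 2.08, 2.64 and 1.56 TPM in KO cells with C. albicans and 0.868, 1.20 and 0.751 TPM in KO cells with PBS. The WT values were 1.78, 0.916 and 0.774 TPM with C. albicans and 2.02, 1.19 and 1.38 TPM with PBS. The KO libraries with C. albicans lay above those with PBS, and the WT groups overlapped. The log2 fold change with C. albicans was 0.67 in KO cells (SE 0.20, limma adjusted p = 0.066) and -0.24 in WT cells (SE 0.20, limma adjusted p = 0.345), with an interaction of 0.91 (SE 0.28, limma adjusted p = 0.0508). None passed, and all of the KO response, the interaction and KO against WT with C. albicans lay near the threshold. Without WT C. albicans replicate 1 they passed, with limma adjusted p-values of 0.0254, 0.00872 and 0.00921. Over all alternatives the ranges were 0.0224 to 0.208, 0.00872 to 0.118 and 0.00921 to 0.181. The gene Gm43621 overlaps Ptgs1 on the opposite strand, and the sources used here do not say whether counting used strand.

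Within a library the ratio of Ptgs2 to Ptgs1 was 3.01, 2.66 and 4.79 in KO cells with C. albicans and 1.11, 1.34 and 1.53 in KO cells with PBS. It was 8.18, 21.8 and 25.1 in WT cells with C. albicans and 0.555, 1.13 and 0.643 in WT cells with PBS. The level of Ptgs2 thus exceeded that of Ptgs1 in every C. albicans library, and the KO ratios lay below the WT ones.

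Ptges (chr2:30889471-30931020) encodes microsomal prostaglandin E synthase 1, the inducible terminal enzyme of prostaglandin E2 synthesis. It had 4.23, 4.30 and 4.65 TPM in KO cells with C. albicans and 3.03, 2.62 and 2.58 TPM in KO cells with PBS. WT libraries gave 9.05, 24.8 and 24.5 TPM with C. albicans and 2.57, 3.24 and 3.09 TPM with PBS. The WT C. albicans libraries were above all others, with replicate 1 far below its replicates, and the KO C. albicans libraries lay in a narrow band above both PBS groups. The mean with C. albicans was 1.60 times that with PBS in KO cells and 6.56 times in WT cells.

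The response of Ptges was 0.53 in KO cells (SE 0.27, limma adjusted p = 0.258) and 2.25 in WT cells (SE 0.27, limma adjusted p = 2.85e-05), with an interaction of -1.72 (SE 0.38, limma adjusted p = 0.0103). KO against WT gave -1.80 with C. albicans (limma adjusted p = 0.000187) and -0.08 with PBS (limma adjusted p = 0.852, 95% interval -0.66 to 0.50). The spread in this fit is shared by all 4 groups. Without WT C. albicans replicate 1 the KO response, again 0.53, passed (limma adjusted p = 0.00188), the WT response was 2.70, and the interaction was -2.17 (limma adjusted p = 3.33e-07). In a fit of the KO libraries alone it passed too (limma adjusted p = 0.00976), and over all alternatives its adjusted p ranged from 0.00188 to 0.462, and that of the interaction from 3.33e-07 to 0.0386. The pseudogene Gm13400 overlaps Ptges on the same strand.

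Ptges3 (chr10:128058982-128077254) encodes cytosolic prostaglandin E synthase, also known as p23, a co-chaperone of Hsp90. It had 87.6, 88.6 and 89.8 TPM in KO cells with C. albicans and 89.0, 90.8 and 88.6 TPM in KO cells with PBS. In WT cells it had 91.2, 103 and 105 TPM with C. albicans and 79.6, 82.7 and 77.1 TPM with PBS. The KO groups overlapped, the WT PBS libraries were the lowest and the WT C. albicans libraries the highest of the 12. Its response was -0.01 in KO cells (limma adjusted p = 0.906) and 0.31 in WT cells (limma adjusted p = 0.000235), with an interaction of -0.33 (SE 0.07, limma adjusted p = 0.00775). KO against WT was -0.17 with C. albicans (limma adjusted p = 0.0167) and 0.16 with PBS (limma adjusted p = 0.0222). The small difference with C. albicans no longer passed with median-ratio scaling (limma adjusted p = 0.145) or upper-quartile scaling (limma adjusted p = 0.241), and the one with PBS no longer passed without WT PBS replicate 1 or 3 or KO PBS replicate 1 or 2, with limma adjusted p-values of 0.0514 to 0.0709. Over all alternatives the ranges were 0.000294 to 0.241 with C. albicans and 0.00172 to 0.0709 with PBS.

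The ratio of Ptges to Ptges3 was 0.0483, 0.0486 and 0.0518 in KO cells with C. albicans and 0.0341, 0.0288 and 0.0291 in KO cells with PBS. It was 0.0992, 0.241 and 0.234 in WT cells with C. albicans and 0.0322, 0.0392 and 0.0401 in WT cells with PBS. The level of the inducible synthase stayed below that of the constitutive one in all 12 libraries.

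**Figure D2:**
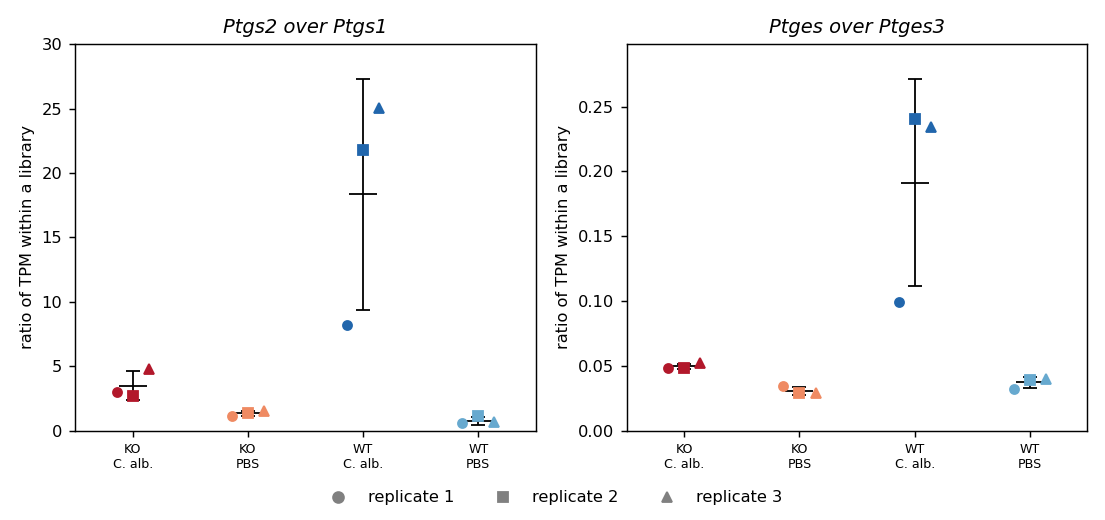
Ratio of the inducible to the constitutive enzyme within each library, Ptgs2 over Ptgs1 on the left and Ptges over Ptges3 on the right, with the 4 groups along the horizontal axis and ratios of TPM on vertical axes that start at 0. Points are libraries and bars are means with SDs of 3; the KO C. albicans libraries lie at 2.66 to 4.79 and 0.0483 to 0.0518, below the WT ones at 8.18 to 25.1 and 0.0992 to 0.241.

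Ptger4 (chr15:5233399-5244187) encodes EP4, a prostaglandin E2 receptor that signals through cyclic AMP. It had 13.6, 14.7 and 14.9 TPM in KO cells with C. albicans and 7.03, 5.87 and 6.84 TPM in KO cells with PBS. WT cells had 24.8, 22.0 and 21.3 TPM with C. albicans and 7.33, 6.63 and 7.64 TPM with PBS. The C. albicans libraries stood apart from the PBS libraries in both genotypes, and the KO C. albicans libraries lay below the WT ones. Its response was 1.03 in KO cells (SE 0.08, limma adjusted p = 2.68e-06) and 1.53 in WT cells (SE 0.08, limma adjusted p = 1.27e-08), a difference of -0.51 (SE 0.11, limma adjusted p = 0.0113). With C. albicans KO against WT was -0.62 (limma adjusted p = 6.69e-05), and with PBS it was -0.11 (limma adjusted p = 0.306). Here WT C. albicans replicate 1 was the highest of its group, not the lowest, and without it the interaction was -0.44 (limma adjusted p = 0.0128, with a range of 0.00433 to 0.0339 over all alternatives). Ttc33 overlaps Ptger4 on the opposite strand.

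Alox5 (chr6:116410071-116461178) encodes 5-lipoxygenase, the enzyme that commits arachidonic acid to leukotrienes. Its TPM corresponded to 4, 0 and 3 reads in KO cells with C. albicans and 0, 1 and 0 reads in KO cells with PBS. The WT values were 3, 1 and 2 reads with C. albicans and 0, 5 and 6 reads with PBS. These are 25 reads in all, with 4 libraries at 0. One read was worth 0.0311 to 0.0488 TPM, so that a count of 0 allows up to 3 reads or 0.0934 to 0.146 TPM, counting error only. Fitted without the filter on low values, no comparison of Alox5 passed, with limma adjusted p-values of 0.138 to 1, and no difference between groups was detectable at this depth.

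Alox5ap (chr5:149265004-149288153) encodes the 5-lipoxygenase activating protein FLAP, which hands arachidonic acid to 5-lipoxygenase. It had 589, 571 and 575 TPM in KO cells with C. albicans and 534, 545 and 507 TPM in KO cells with PBS. WT libraries gave 590, 549 and 523 TPM with C. albicans and 548, 549 and 546 TPM with PBS. The KO libraries with C. albicans lay above those with PBS, and the WT groups overlapped. Its response was 0.13 in KO cells (SE 0.04, limma adjusted p = 0.0731) and 0.01 in WT cells (SE 0.04, limma adjusted p = 0.785, 95% interval -0.07 to 0.10). The KO response passed with median-ratio scaling at 0.17 (limma adjusted p = 0.0132), with upper-quartile scaling at 0.15 (limma adjusted p = 0.0348) and without WT C. albicans replicate 1 (limma adjusted p = 0.0114). The difference of responses was 0.11 (limma adjusted p = 0.213). Without WT C. albicans replicate 1 it was 0.16 and passed (limma adjusted p = 0.0174). KO against WT with C. albicans was 0.06 and did not pass (limma adjusted p = 0.235). It was 0.11 and passed without that library (limma adjusted p = 0.0154), and it also passed at 0.12 with median-ratio scaling (limma adjusted p = 0.0166) and at 0.14 with upper-quartile scaling (limma adjusted p = 0.00903), while with the length trend removed it was -0.03 (limma adjusted p = 0.631). Over all alternatives the adjusted p ranged from 0.0114 to 0.259 for the KO response, 0.0174 to 0.427 for the interaction and 0.00699 to 0.69 for KO against WT with C. albicans. The antisense gene Gm19719 overlaps Alox5ap.

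Lta4h (chr10:93453396-93484896) encodes leukotriene A4 hydrolase, which makes leukotriene B4, and is the gene of the leukotriene route that fell. It had 50.6, 51.8 and 54.8 TPM in KO cells with C. albicans and 53.1, 54.2 and 57.2 TPM in KO cells with PBS. In WT cells it had 46.6, 42.8 and 44.2 TPM with C. albicans and 54.9, 56.8 and 56.1 TPM with PBS. The 3 WT C. albicans libraries were the lowest of the 12, and the KO groups overlapped. Its response was -0.06 in KO cells (SE 0.05, limma adjusted p = 0.435) and -0.32 in WT cells (SE 0.05, limma adjusted p = 0.000129). The difference of responses was 0.26 (SE 0.07, limma adjusted p = 0.0214). It no longer passed without WT PBS replicate 2, WT C. albicans replicate 2, KO PBS replicate 1 or KO C. albicans replicate 3, at 0.23 to 0.25 with limma adjusted p-values of 0.0515 to 0.0607. KO against WT was 0.23 with C. albicans (limma adjusted p = 0.00174) and -0.03 with PBS (limma adjusted p = 0.68).

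Ltc4s (chr11:50236461-50238532) encodes leukotriene C4 synthase, which joins glutathione to leukotriene A4. It had 6.05, 6.29 and 7.27 TPM in KO cells with C. albicans and 4.85, 4.85 and 4.26 TPM in KO cells with PBS. WT cells had 5.36, 7.08 and 5.86 TPM with C. albicans and 2.39, 5.38 and 6.10 TPM with PBS. The KO libraries did not overlap between treatments, while WT PBS replicate 1 was far below its replicates and the WT groups overlapped. Its response was 0.41 in KO cells (SE 0.21, limma adjusted p = 0.264) and 0.40 in WT cells (SE 0.21, limma adjusted p = 0.144), with a difference of 0.01 and a 95% interval of -0.64 to 0.66. Without WT PBS replicate 1 the KO response passed (limma adjusted p = 0.0378), and without WT PBS replicate 3 the WT response was 0.60 and passed (limma adjusted p = 0.0413), with ranges over all alternatives of 0.025 to 0.492 in KO and 0.0413 to 0.669 in WT cells. KO against WT was 0.09 with C. albicans (limma adjusted p = 0.765) and 0.08 with PBS (limma adjusted p = 0.821). The antisense gene Gm26542 overlaps Ltc4s.

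**Figure D3:**
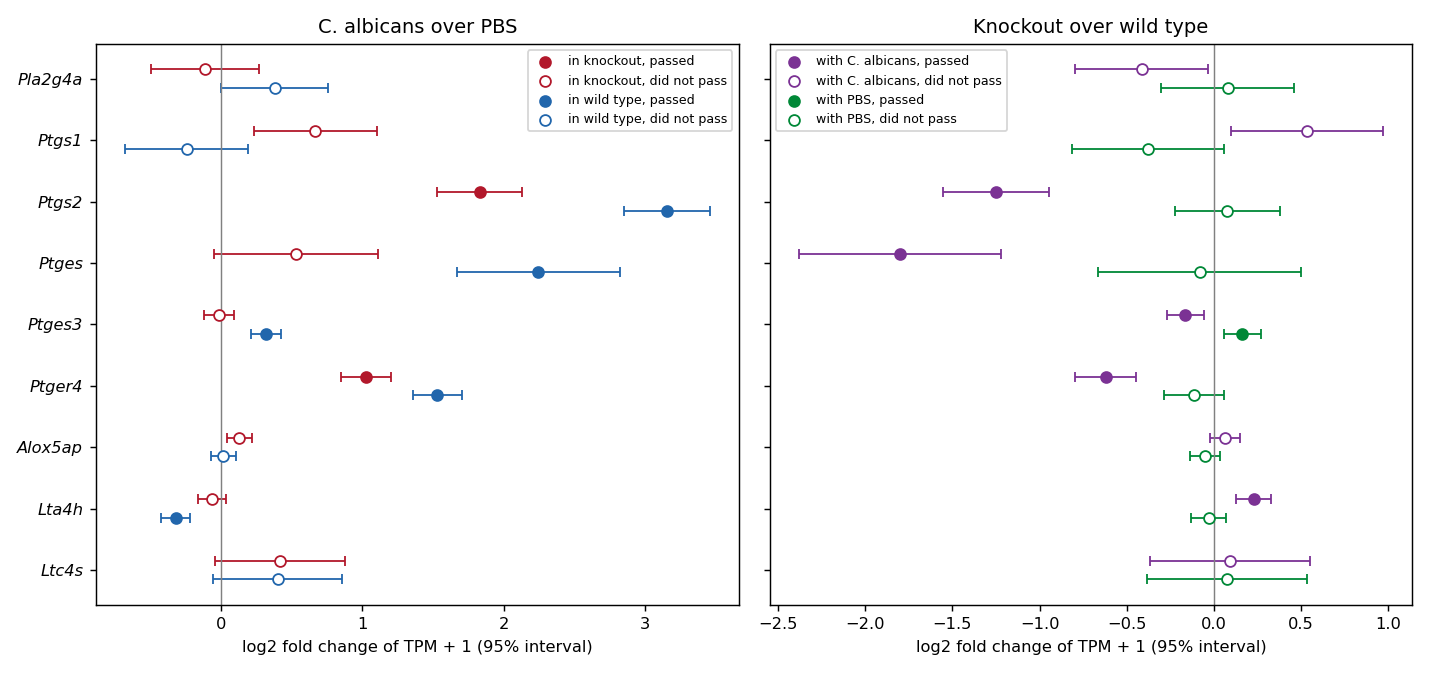
Log2 fold changes of TPM + 1 with 95% intervals for the 9 genes tested, as the response to C. albicans in KO and WT cells (left) and as KO over WT cells with C. albicans and with PBS (right). Filled points passed the limma test and open points did not; Ptgs2 lies at 1.83 in KO and 3.16 in WT cells, and Ptges at 0.53 and 2.25.

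Set side by side, the 4 prostaglandin synthesis genes (Ptgs1, Ptgs2, Ptges, Ptges3) and the 4 leukotriene synthesis genes (Alox5, Alox5ap, Lta4h, Ltc4s, of which 3 were tested) differed in size of response. The median log2 fold change with C. albicans in KO cells was 0.60 for the prostaglandin genes and 0.13 for the leukotriene genes, beside -0.04 over all tested genes. In WT cells it was 1.28 for the prostaglandin genes and 0.01 for the leukotriene genes, beside -0.07 over all. For KO against WT with C. albicans the medians were -0.71 and 0.09, beside -0.05. For KO against WT with PBS they were -0.0029 and -0.03, beside -0.08. For the interaction they were -0.83 and 0.11, beside 0.02. These medians of 4 and 3 genes are descriptions. In KO cells the prostaglandin median lies between Ptgs1 (0.67) and Ptges (0.53), neither of which passed. In WT cells it lies between Ptges (2.25) and Ptges3 (0.31), so Ptgs2 sets neither value.

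In transcript abundance the leukotriene genes were the larger group, because of Alox5ap. Their summed level was 637 ± 8.18 TPM in KO cells with C. albicans, 588 ± 18.0 in KO cells with PBS, 605 ± 34.8 in WT cells with C. albicans and 608 ± 3.24 in WT cells with PBS (SD, n = 3 each). The prostaglandin genes summed to 102 ± 1.73 TPM in KO cells with C. albicans, 94.4 ± 1.66 in KO cells with PBS, 138 ± 18.7 in WT cells with C. albicans and 85.5 ± 3.0 in WT cells with PBS, most of it Ptges3. The ratio of Alox5ap to Ptgs2 within a library was 76.8 to 93.9 in KO cells with C. albicans, 338 to 556 in KO cells with PBS, 27.0 to 40.5 in WT cells with C. albicans and 410 to 616 in WT cells with PBS.

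KO against WT fold changes fell with gene length across all tested genes, with a Spearman correlation across genes of -0.398 with C. albicans and -0.461 with PBS, and -0.0444 for the interaction. Ltc4s and Alox5ap were among the shorter genes, at the 7.73 and 9.59 percentiles of length, Ptges3 and Lta4h were at 28.6 and 31.1, and Ptger4 and Ptgs2 at 64.1 and 72.1. With the length trend taken out, KO against WT with C. albicans was -1.14 for Ptgs2 (limma adjusted p = 0.000128), -1.74 for Ptges (limma adjusted p = 0.00064), -0.54 for Ptger4 (limma adjusted p = 0.000162) and 0.19 for Lta4h (limma adjusted p = 0.00415). For Ptges3 it was -0.21 (limma adjusted p = 0.0101), so the 5 genes that passed with C. albicans passed in this fit as well.

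Genes whose pattern was most like that of Ptgs2 were sought by the Pearson correlation of log2(TPM + 1) over the 12 libraries among 8898 tested genes with a mean of at least 5 TPM. They were Ehd1 (r = 0.994), which encodes a protein of endocytic recycling, Cd69 (0.992), an activation antigen of leukocytes, Gch1 (0.990), the first enzyme of tetrahydrobiopterin synthesis, Ets2 (0.990), a transcription factor, and Ppp1r15a (0.989), a regulator of the stress response also called GADD34. The libraries of a group and treatment are shared by all these genes, so the values describe likeness only. Ehd1 averaged 99.0 TPM in KO cells with C. albicans, 43.6 in KO cells with PBS, 200.4 in WT cells with C. albicans and 44.2 in WT cells with PBS, and Cd69 averaged 14.4, 3.81, 35.2 and 3.66 TPM in the same groups. Among the 10 genes themselves Ptger4 followed Ptgs2 most closely (r = 0.973), and Lta4h ran opposite to Ptges (r = -0.942). No such genes were sought for Alox5, which had 0 to 6 reads.

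A wider list of 64 eicosanoid genes puts the 10 in context, and 34 of these passed the filter. With C. albicans 2 rose and 2 fell in KO cells, while 6 rose and 10 fell in WT cells, and the median log2 fold change was -0.01 and -0.08. Over all tested genes 3.94% rose and 3.14% fell in KO cells. In the interaction 6 of the 34 were higher and 4 lower, beside 7.52% and 6.33% of all tested genes. KO against WT gave 8 higher and 6 lower with C. albicans, beside 12.4% and 27.5%, and 4 higher and 12 lower with PBS, beside 6.14% and 26.1%. More of the list fell than rose in WT cells, as over all tested genes, where 28.3% fell and 16.1% rose, while with median-ratio scaling more of all genes rose (2576) than fell (2066).

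Among phospholipases and genes that release or recycle arachidonic acid, Lpcat2, a lysophospholipid acyltransferase, rose in both genotypes, by 0.58 in KO cells (limma adjusted p = 0.00829) and 0.74 in WT cells (limma adjusted p = 0.000235). It averaged 20.2 ± 1.61 TPM in KO cells with C. albicans, 13.1 ± 0.572 in KO cells with PBS, 30.2 ± 5.95 in WT cells with C. albicans and 17.4 ± 1.15 in WT cells with PBS (SD, n = 3 each). Acsl4, which activates arachidonic acid with coenzyme A, rose by 0.51 in WT cells (limma adjusted p = 5.39e-05), and KO against WT with C. albicans was -0.53 (limma adjusted p = 4.38e-05). Pla2g7, the platelet-activating factor acetylhydrolase, fell by 0.22 in KO cells (limma adjusted p = 0.00388) and fell by 0.64 in WT cells (limma adjusted p = 6.72e-08). It averaged 427 ± 21.2 TPM in KO cells with C. albicans, 498 ± 1.60 in KO cells with PBS, 355 ± 6.78 in WT cells with C. albicans and 552 ± 25.0 in WT cells with PBS. Pla2g15, the lysosomal phospholipase A2, fell by 0.64 in WT cells (limma adjusted p = 3.49e-06), and its response in KO cells differed by 0.71 (limma adjusted p = 0.000179). The KO response itself was 0.07 and did not pass (limma adjusted p = 0.52). KO against WT for Pla2g15 was -0.50 with PBS (limma adjusted p = 7.29e-05) and 0.21 with C. albicans (limma adjusted p = 0.0129). The difference with PBS thus enters its difference of responses. Daglb, a diacylglycerol lipase, fell by 0.69 in WT cells (limma adjusted p = 2.1e-05), with a difference of responses of 0.62 (limma adjusted p = 0.00288). Its KO response was -0.06 and did not pass (limma adjusted p = 0.688). KO against WT for Daglb was -0.27 with PBS (limma adjusted p = 0.0183) and 0.35 with C. albicans (limma adjusted p = 0.0035). Rac1 overlaps Daglb on the opposite strand.

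Of the other prostanoid enzymes, the examples that follow were chosen after their values were seen. Tbxas1, thromboxane A synthase, averaged 108 ± 2.46 TPM in KO cells with C. albicans, 98.2 ± 2.37 in KO cells with PBS, 96.1 ± 8.92 in WT cells with C. albicans and 101 ± 2.66 in WT cells with PBS. Hpgds, the haematopoietic prostaglandin D synthase, averaged 128 ± 2.19, 127 ± 2.69, 140 ± 10.8 and 138 ± 6.52 TPM in the same groups. Hipk2 overlaps Tbxas1 on the opposite strand. Of 5 such enzymes tested, 0 changed with C. albicans in KO cells (limma), and 2 fell in WT cells, Cbr1, a carbonyl reductase (log2 fold change -0.24, limma adjusted p = 0.00945), and Prxl2b, a prostaglandin F synthase (-0.21, limma adjusted p = 0.0135). Of all tested genes 3.94% rose and 3.14% fell in KO cells, and 28.3% fell in WT cells. KO against WT with C. albicans gave 3 of the 5 higher and 0 lower, beside 12.4% and 27.5% of all tested genes. These were Tbxas1 (0.17, limma adjusted p = 0.0233), Cbr1 (0.27, limma adjusted p = 0.00479) and Prxl2b (0.21, limma adjusted p = 0.0132). Ptgis, the prostacyclin synthase, and Ptgds, the other prostaglandin D synthase, had 0 to 3 reads per library.

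Of 3 other prostanoid receptors tested, 1 rose and 0 fell in KO cells with C. albicans, beside 3.94% and 3.14% of all tested genes. In WT cells 1 rose and 1 fell, beside 16.1% and 28.3%. Ptgir, the prostacyclin receptor, was the one that rose in both genotypes, and the one that fell in WT cells is not described here. It averaged 3.62 ± 0.291 TPM in KO cells with C. albicans, 2.26 ± 0.604 in KO cells with PBS, 7.39 ± 0.777 in WT cells with C. albicans and 3.66 ± 0.531 in WT cells with PBS. Its response was 0.52 in KO cells (limma adjusted p = 0.0351) and 0.85 in WT cells (limma adjusted p = 0.000263). The interaction was -0.33 and did not pass (limma adjusted p = 0.283). KO against WT was -0.86 with C. albicans (limma adjusted p = 0.000261) and -0.53 with PBS (limma adjusted p = 0.00938). Of the 3 receptors, 0 were higher and 3 lower in KO than in WT cells with PBS, beside 6.14% and 26.1% of all tested genes. With C. albicans 0 were higher and 1 was lower, beside 12.4% and 27.5%. The KO response of Ptgir no longer passed without either of KO PBS replicates 1 and 2 or any of the 3 KO C. albicans libraries, with limma adjusted p-values of 0.0593 to 0.12. By choice after their values were seen, 2 more receptors are given. Ptger2, the other cyclic AMP coupled receptor for prostaglandin E2, averaged 7.69 ± 0.333 TPM in KO cells with C. albicans, 7.81 ± 0.806 in KO cells with PBS, 8.61 ± 0.822 in WT cells with C. albicans and 10.1 ± 0.424 in WT cells with PBS. For Ptger2 KO against WT was -0.34 with PBS (limma adjusted p = 0.0074) and -0.14 with C. albicans, which did not pass (limma adjusted p = 0.193). Ptger3 had 0 to 4 reads per library.

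On the leukotriene side Abcc1, the transporter that exports leukotriene C4, rose in WT cells by 0.59 (limma adjusted p = 0.00376). It had 31.3, 30.3 and 33.0 TPM in KO cells with C. albicans and 33.9, 33.1 and 32.2 TPM in KO cells with PBS. The WT values were 40.9, 65.7 and 67.3 TPM with C. albicans and 36.2, 37.2 and 38.2 TPM with PBS. The WT C. albicans libraries were above all others, with replicate 1 again the lowest of them. With C. albicans KO against WT was -0.82 (limma adjusted p = 0.000417), and the interaction was -0.66 (limma adjusted p = 0.0394), which no longer passed in 11 of 12 fits that left out 1 library, with limma adjusted p-values of 0.0622 to 0.0932. Mgst3, a microsomal glutathione transferase, rose by 0.71 in WT cells (limma adjusted p = 0.000297). With PBS it was higher in KO than in WT cells, at means of 21.0 and 13.5 TPM (0.59, limma adjusted p = 0.00177). Its response in KO cells was 0.22 (limma adjusted p = 0.264), and the interaction of -0.49 did not pass (limma adjusted p = 0.0617). Cysltr1, a receptor for cysteinyl leukotrienes, averaged 6.98 ± 0.241 TPM in KO cells with C. albicans, 6.84 ± 0.225 in KO cells with PBS, 7.49 ± 1.15 in WT cells with C. albicans and 9.04 ± 0.0464 in WT cells with PBS. Gm5127 overlaps Cysltr1 on the opposite strand. Its response was 0.03 in KO cells (limma adjusted p = 0.899) and -0.25 in WT cells, which passed (limma adjusted p = 0.0347). KO against WT for Cysltr1 with PBS was -0.36 (limma adjusted p = 0.00818). With the length trend removed this difference was -0.28 and no longer passed (limma adjusted p = 0.0612). Ltb4r1, the receptor for leukotriene B4, had 0 to 4 reads per library. None of the 6 other lipoxygenases on the list passed the filter, and Alox15 had no read in any library.

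**Figure D4:**
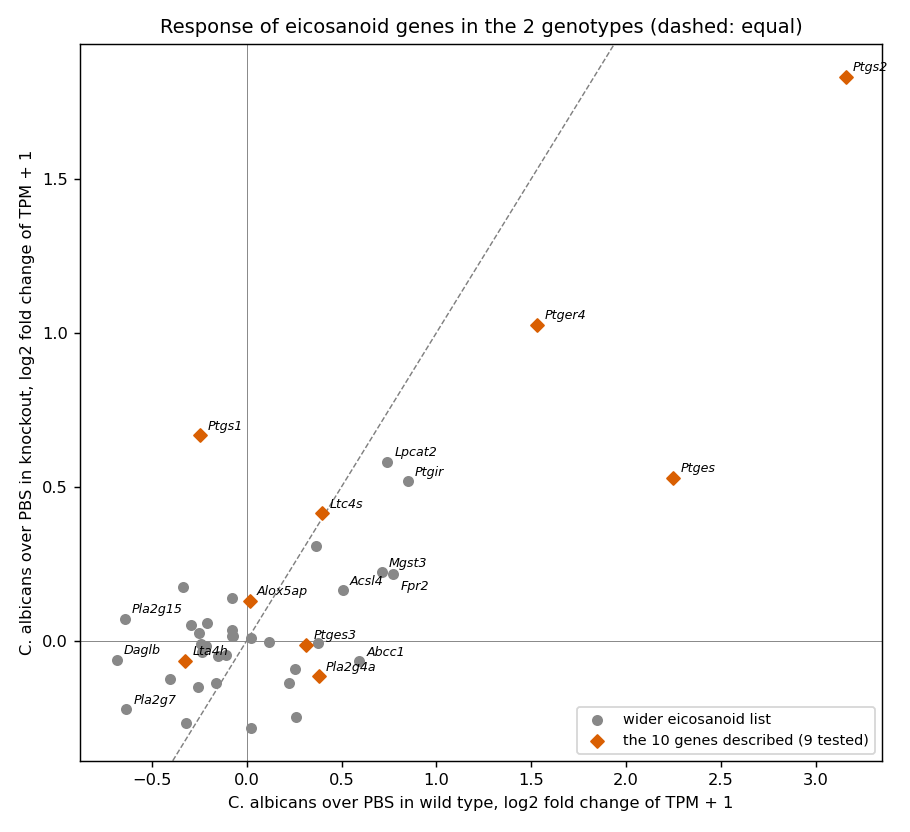
Response to C. albicans in KO cells (vertical) against that in WT cells (horizontal), as log2 fold changes of TPM + 1, for the 9 tested genes of the 10 (diamonds) and the 34 tested genes of the wider list (circles). The dashed line marks equal responses; Ptgs2 (1.83 in KO, 3.16 in WT), Ptges (0.53, 2.25) and Ptger4 (1.03, 1.53) lie below it, and Ptgs1 (0.67, -0.24) above it.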

How the data were processed

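Polyadenylated RNA of 12 libraries was sequenced. The submitters' processing notes name STAR 2.7.5a, the build mm10, cutadapt 2.6, DESeq2 1.34.0 and CASAVA 1.8, and the sources used here give no read counter, strand setting or annotation. The authors deposited TPM for 25230 genes. Per the file headers the table also holds the authors' mean normalised signal over libraries and, for 1 comparison, p-values and adjusted p-values, a Wald score and log2 fold changes with standard errors. That comparison was identified as C. albicans over PBS in WT, since log2 ratios of scaled reads differed from it by a median of 0.00102 over 10034 genes.

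The deposited TPM and mean signal together gave back read numbers, and 100% of 171648 values above 0 lay within 0.05 of a whole read. Genes without a symbol held 0.00132% of reads. Gene length was recovered from TPM and reads. Groups follow the genotype and treatment labels. limma 3.58.1 in R 4.3.3 fitted log2(TPM + 1) with a variance trend, 1 mean per group, 12 libraries, no block and 8 residual degrees of freedom, on the 11283 genes that reached 1 TPM in 3 or more libraries. P-values are two-sided and adjusted by Benjamini-Hochberg over all tested genes within each of 5 comparisons. The fit was tested on simulated data.

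Named genes are the 10, Piezo1, the 5 genes most correlated with Ptgs2, and some wider eicosanoid genes, with other examples marked where given. The wider genes come from up to 8 of 64 per comparison, ranked by absolute fold change among those that passed. Of those ranked, Fpr2, Pla2g5, Abcc4, Pla2g2e, Cyp4f18, Anxa1 and Cotl1 are not described. Fpr2 had the largest change for KO against WT with C. albicans, at -1.08 with overlapping libraries. The members and lists were chosen with earlier results of these data known. Promoter windows are from RefSeq (GRCm38.p6), gene coordinates are those of RefSeq on GRCm38, the assembly that mm10 names, and overlapping genes are from GENCODE. Alternatives covered scaling, pseudocounts of 0.1 and 5, filters, the variance trend, the libraries fitted, the replicate block and leaving out each library, and 2 were added after seeing the data: voom on the recovered reads, and removal of the trend of fold change with gene length. DESeq2 was not run here. Intervals cover 95%.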

Additional observations from a re-analysis of the deposited data

Results flagged for a closer look

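For 5 of the 9 genes tested the response to C. albicans differed between the genotypes by a test of the difference itself, the limma interaction over 12 libraries, with 4 lower and 1 higher in KO cells. Of all tested genes 6.33% passed as lower and 7.52% as higher. The response in KO cells minus that in WT cells, on the log2 scale of TPM + 1, was -1.325 for Ptgs2 (limma adjusted p = 0.000887), -1.719 for Ptges (limma adjusted p = 0.0103), -0.506 for Ptger4 (limma adjusted p = 0.0113) and -0.3281 for Ptges3 (limma adjusted p = 0.00775). It was 0.2582 for Lta4h (limma adjusted p = 0.0214), the one gene of the leukotriene route among them, and it no longer passed in 4 of the 12 fits that left out 1 library (limma adjusted p = 0.0515 to 0.0607). In the raw ratios of means, C. albicans over PBS, Ptgs2 stood at 5.59 in KO and 16.1 in WT cells, Ptges at 1.60 and 6.56, Ptger4 at 2.19 and 3.16, Ptges3 at 0.991 and 1.25, and Lta4h at 0.955 and 0.796. The KO PBS libraries enter all of these differences, and their titles name DMSO.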

How the results depend on the processing

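Over the fold changes of the 9 tested genes in 5 comparisons and up to 23 alternatives each, 968 of 1021 values kept their side of the threshold, 15 no longer passed and 38 newly passed. In 28 of the 1021 the sign differed from that of the value reported, and none of these 28 had passed in either fit. Over the wider genes selected by fold change, together with Piezo1 in KO against WT, 796 of 865 values kept their direction and passed, and 69 no longer passed. When each library was left out in turn, genes passing ranged from 420 to 1487 for the response in KO cells and from 1036 to 2531 for the interaction, and of the 10 genes 2 to 5 passed for the response in KO cells, 0 to 1 for KO against WT with PBS, 4 to 8 with C. albicans and 4 to 8 for the interaction. The leukotriene median ranged from 0.0676 to 0.189 for KO against WT with C. albicans and from 0.0742 to 0.271 for the interaction. The cause was not tested. Fitting only the groups compared gave 1350 genes and 6 of the 10 for the response in KO cells.

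The leukotriene median was near 0 and moved with scaling. With median-ratio scaling it was 0.0955 for the response in WT cells, and KO against WT was 0.144 with C. albicans and 0.0686 with PBS. With upper-quartile scaling KO against WT was 0.161 and 0.0444, with voom 0.170 and 0.0391, and with the length trend removed it was -0.0029 with C. albicans. Without a filter, which adds Alox5, it was -0.0404 for the response in WT cells. The prostaglandin median of the response in KO cells was 0.868 with a pseudocount of 0.1, 0.267 with 5 and 0.909 with voom, and with a pseudocount of 5 it was 0.92 in WT cells. With a filter of 5 TPM, which drops Ptgs1, it was 2.25 for the response in WT cells, -1.25 for KO against WT with C. albicans and -1.32 for the interaction. Voom passed 4 of the 10 in KO cells, and removing the length trend left 1817 genes for KO against WT with PBS.

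Same-numbered libraries did not deviate together (correlations of -0.0874 to 0.0871). A pairing with small effects would look the same, so this does not settle whether the numbers pair libraries, and the labels do not say. With the replicate block 716 genes passed for the response in KO cells, against 799 without it, and 2 of the 10 in both. Depth limits Alox5, at 0 to 6 reads per library, and makes Ptgs1 and Ltc4s imprecise.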
